A study of Mus musculus with 2 samples.

Results

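The 43 genes described here are 7 regulators of the G1 phase, 18 genes of DNA replication in S phase and 18 genes of G2 and mitosis, out of 31053 genes counted in single cells of injured mouse spinal cord. They were taken by symbol from the gene table of the matrices, and each of the 43 had UMIs (unique molecular identifiers, 1 per captured mRNA molecule) in the cells kept, from 98 for Cdc6 to 24876 for Cdkn1a. The cord was taken 5 days after injury and profiled by 10x Genomics 3' (v3) chemistry, in 1 library from treatment with an inhibitor of HDAC3, a histone deacetylase, and 1 from treatment with vehicle. The labels name tissue, treatment and time. The compound, its dose, and the strain, age and number of the mice behind a library are not given in them.

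With 1 library per group there is no replicate, so the libraries are compared and not the treatments, no test was made, and every 95% interval below covers counting error only. Where a pair of values is given, the HDAC3 inhibitor library comes first, and a ratio is that library over the vehicle library. The libraries held 3423 and 2523 barcodes with 38957752 and 29726813 UMIs, of which 2957 and 2159 cells were kept, with medians of 9701 and 10186 UMIs. Of the barcode sequences, 10 occurred in both libraries, 4 of them among kept cells. Clusters made without any cell cycle gene were named from marker genes: 26 of 29 clusters fell into 14 classes, and at least 20 CPM was reached by 12 of 12 microglia markers in microglia-like cells of both libraries, by 11 and 12 of 13 monocyte/macrophage markers and by 11 of 11 neutrophil markers in their classes. Levels are CPM (a gene's UMIs per 1000000 UMIs of a class in a library), with exact Poisson intervals. They are not divided by gene length, since the kit counts 1 tag per molecule.

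D-type cyclins (Ccnd1, Ccnd2, Ccnd3) activate the kinases Cdk4 and Cdk6 in G1, which phosphorylate the retinoblastoma protein and release E2F factors. E2F then switches on genes that load and fire replication origins and make nucleotides, while the CDK inhibitors Cdkn1a (p21) and Cdkn1b (p27) hold cells back. Genes of G2 and mitosis are silenced in resting cells by the DREAM complex, which binds CHR elements in their promoters, often beside CCAAT boxes bound by NF-Y. After cord injury, microglia, the resident macrophages of the central nervous system, are known to proliferate, whereas monocyte-derived macrophages and neutrophils arrive from the blood and most mature neutrophils no longer divide.

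UMIs of the G2/M genes were concentrated in few cells. With cell cycle genes left out of the clustering, most of these were microglia-like cells, monocyte-like cells with genes of early granulocytes, and neutrophil-like cells with secondary granule genes. Of the astrocyte-like cells, 3 of 35 also held such UMIs. The D-type cyclins divided the classes between them: Ccnd1 led in oligodendrocyte progenitor-like and endothelial-like cells, Ccnd2 in ependymal-like, T/NK-like and mural-like cells, and Ccnd3 in neutrophil-like and T/NK-like cells. Between the libraries, Ccnd1 was higher in the HDAC3 inhibitor library, 1.93 times in microglia-like and 3.82 times in monocyte/macrophage-like cells. Most replication genes were also higher in its microglia-like cells when UMIs were summed, but their median ratio was not when each cell had the same weight.

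The promoters of 4 members are shown because they hold CHR or E2F words, of the kinds searched for. Promoter windows of RefSeq (GRCm38.p6, 250 bases before to 50 after a start) were at hand for 35 of the 43 members, in 39 windows, and were searched on both strands for CHR words (TTTGAA or TTCGAA), for CCAAT and for 4 E2F words (TTTGGCGC, TTTGCCGC, TTTCGCGC and TTTCCCGC). Each stretch below is the 160 bases before the start, 5′ to 3′ on the gene's strand. Capitals mark CHR words in Top2a and Mki67 and E2F words in Mcm5 and Mcm6, matched on either strand, so that TTCAAA is a CHR word read backwards, and overlapping words join.
Top2a (chr11:99024190-99024349, minus strand): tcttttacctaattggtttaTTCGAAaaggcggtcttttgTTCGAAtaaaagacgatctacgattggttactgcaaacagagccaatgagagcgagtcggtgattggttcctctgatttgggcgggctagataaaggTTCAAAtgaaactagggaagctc
Mki67 (chr7:135716380-135716539, minus strand): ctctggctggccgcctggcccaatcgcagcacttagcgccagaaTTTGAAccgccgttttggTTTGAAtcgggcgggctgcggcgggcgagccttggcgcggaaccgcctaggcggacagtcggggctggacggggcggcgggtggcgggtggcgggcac
Mcm5 (chr8:75109349-75109508, plus strand): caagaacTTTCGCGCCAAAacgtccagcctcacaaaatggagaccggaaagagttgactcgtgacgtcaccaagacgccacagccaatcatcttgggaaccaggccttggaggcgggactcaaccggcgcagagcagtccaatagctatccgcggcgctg
Mcm6 (chr1:128359706-128359865, minus strand): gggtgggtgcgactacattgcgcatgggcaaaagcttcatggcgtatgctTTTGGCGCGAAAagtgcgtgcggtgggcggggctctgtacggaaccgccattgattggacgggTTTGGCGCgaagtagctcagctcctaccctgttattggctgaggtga

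Top2a, the topoisomerase that untangles chromosomes before they separate, carried 3 CHR words and 4 CCAAT words in these 160 bases, and Mki67, the chromosome surface protein stained as Ki-67, carried 2 and 1. Mcm5 and Mcm6, subunits of the replicative helicase, carried 2 and 3 E2F words, some overlapping. A CHR word was found in 11 of 15 windows of G2/M genes (73.3%), in 3 of 17 of S phase genes (17.6%) and in 0 of 7 of G1 regulators, against 19.2% of all 32851 windows. CCAAT was found in 76.5% of S phase and 86.7% of G2/M windows, against 37.4% of all. CHR and CCAAT occurred together in 73.3% of the G2/M windows and in 7.53% of all windows. An E2F word was found in 6 of 17 windows of S phase genes (35.3%) and 1 of 15 of G2/M genes (6.67%), against 2.27% of all windows. These are matches of letters and not shown binding sites.

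Among the G1 regulators, the cyclins differed most between classes. Ccnd1 (cyclin D1, ENSMUSG00000070348, GENCODE M21 chromosome 7, 144929931 to 144939925, minus strand) was at 347 CPM (287 to 417) and 559 CPM (504 to 619) in oligodendrocyte progenitor-like cells, and its endothelial-like level was 220.0 CPM (207 to 234) and 176 CPM (163 to 190.4). Schwann-like cells had 149 and 65.2 CPM of Ccnd1, border-associated macrophage-like cells 104 and 53.5 CPM and microglia-like cells 78.3 and 40.5 CPM. In each of these 3 classes the HDAC3 inhibitor library was higher and the intervals did not overlap. Ccnd1 was low in the myeloid classes known to come from blood, with 9.94 and 2.60 CPM in monocyte/macrophage-like cells and 2 and 1 UMIs in neutrophil-like cells.

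Ccnd2 (cyclin D2) was at 295 CPM (265 to 328) and 296 CPM (251 to 346) in ependymal-like cells, the ciliated lining of the canal. T/NK-like cells had 273 and 220.4 CPM and mural-like cells, the pericytes and smooth muscle of vessels, 218 and 192 CPM, and in all 3 classes the intervals of the libraries overlapped. Ccnd2 was at 12.6 and 6.89 CPM in microglia-like cells and had 7 and 6 UMIs in the monocyte/macrophage-like class. Ccnd3 (cyclin D3), known for its part in lymphocyte and granulocyte development, was at 266 CPM (236 to 297) and 273 CPM (249 to 299) in neutrophil-like cells. It was at 199 and 200.4 CPM in T/NK-like and 146 and 145 CPM in endothelial-like cells, and at 25.6 and 23.5 CPM in microglia-like cells. Of the D-type cyclins in neutrophil-like cells, Ccnd3 had most of the UMIs, beside 10.5 and 9.24 CPM of Ccnd2.

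Cdk4, a kinase partner of the D-type cyclins, was found in every class and was highest in oligodendrocyte progenitor-like cells, at 245 CPM (194 to 304) and 243 CPM (207 to 283). It was at 65.2 and 55.0 CPM in microglia-like, 75.2 and 63.4 CPM in monocyte/macrophage-like and 6.11 and 6.93 CPM in neutrophil-like cells. Cdk6, the other partner, had 88.6 and 50.1 CPM in T/NK-like, 49.5 and 69.1 CPM in mural-like and 46.9 and 35.7 CPM in microglia-like cells, whereas the monocyte/macrophage-like class had 21.2 and 18.9 CPM. In the oligodendrocyte lineage Cdk6 had 1 and 0 UMIs in progenitor-like and 5 and 0 UMIs in oligodendrocyte-like cells.

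The CDK inhibitors Cdkn1a and Cdkn1b were both highest in Schwann-like cells, the myelinating glia of nerve roots. Cdkn1a, a target of p53, was at 1229 CPM (1141 to 1322) and 1372 CPM (1289.7 to 1459) in Schwann-like cells, and microglia-like cells had 769 CPM (747 to 791) and 703 CPM (684 to 723). It was at 543 and 380.4 CPM in border-associated macrophage-like, 445 and 383 CPM in endothelial-like cells, at 316 and 304 CPM in the monocyte/macrophage-like class, and had its lowest mean over the libraries in B lineage-like cells, at 31.7 and 13.1 CPM. Cdkn1b was at 726 CPM (658 to 798) and 829 CPM (765 to 897) in Schwann-like cells. It was at 280.4 and 182 CPM in neutrophil-like and 173 and 220.4 CPM in T/NK-like cells, and at 51.4 and 41.8 CPM in microglia-like cells, the lowest mean of the 14 classes.

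**Figure D1:**
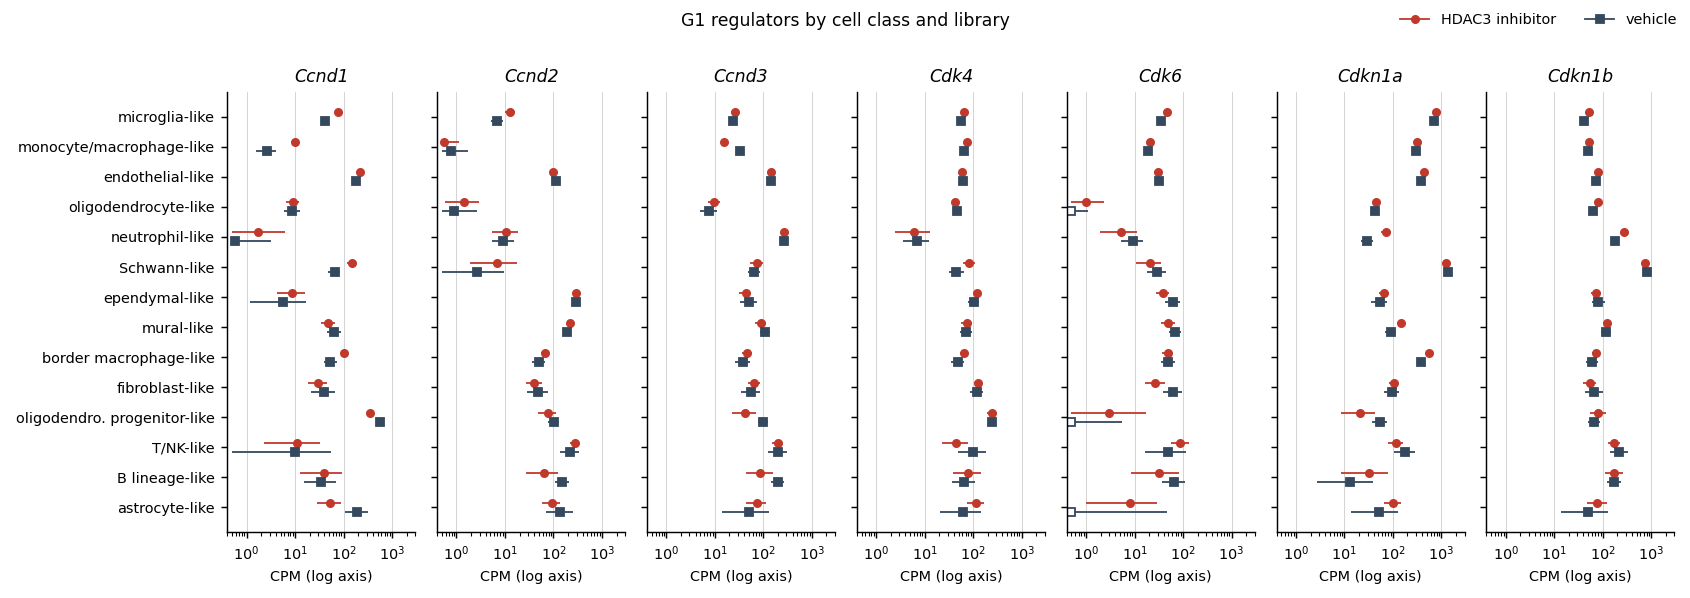
Levels of the 7 G1 regulators (CPM, log axis) in each cell class, for the HDAC3 inhibitor and the vehicle library, with exact Poisson 95% intervals; a hollow marker stands for 0 UMIs, and values under 0.5 CPM are drawn at 0.5. Ccnd1 spans from 559 CPM in oligodendrocyte progenitor-like cells to under 2 CPM in neutrophil-like cells, and Cdkn1a reaches 1372 CPM in Schwann-like cells.

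To compare how many cells held S phase or G2/M transcripts, UMIs were drawn at random from each cell down to 2000, leaving out shallower cells, and a cell was counted for a list when it had at least 2 thinned UMIs of its 18 genes. Over all cells, 84 of 2827 (2.97%, Clopper-Pearson 2.38 to 3.67%) and 57 of 2056 (2.77%, 2.11 to 3.58%) were counted for G2/M, with intervals that overlapped. Without thinning the shares were 9.13% and 9.68%, and 130 and 103 shallower cells were left out. Microglia-like cells made up 48.8% and 42.1% of the counted cells.

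Microglia-like cells were counted for G2/M in 41 of 478 (8.58%, 6.23 to 11.5%) and 24 of 481 (4.99%, 3.22 to 7.33%), a larger share in the HDAC3 inhibitor library with intervals that overlapped. Unthinned, these shares were 17.0% and 13.2%, at medians of 10738 and 11979.5 UMIs. Neutrophil-like cells had 12 of 154 (7.79%, 4.09 to 13.2%) and 12 of 207 (5.80%, 3.03 to 9.91%), unthinned 9.66% and 8.49%. Monocyte/macrophage-like cells had 11 of 517 (2.13%, 1.07 to 3.78%) and 8 of 279 (2.87%, 1.25 to 5.57%), unthinned 14.3% and 17.2%. Oligodendrocyte-like cells, which are postmitotic and serve as the background from free RNA, had 1 of 383 (0.261%) and 0 of 196, which allows a share of up to 1.53%, unthinned 1.78% and 3.35%, at medians of 10906 and 14758 UMIs. The microglia-like and neutrophil-like shares lay above this background in both libraries in this clustering, which left cell cycle genes out. With those genes kept in, the microglia-like shares were 7 of 444 (1.58%) and 3 of 460 (0.652%), near the background, and the neutrophil-like ones 56 of 198 (28.3%) and 39 of 234 (16.7%), so the class that holds these cells depends on that choice.

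The other classes held few counted cells. Astrocyte-like cells had 2 of 27 and 1 of 8, or 8.57% (1.80 to 23.1%) over both libraries, beside 6.78% (5.27 to 8.56%) in microglia-like cells. Each of these 3 astrocyte-like cells held at least 11 of the 18 G2/M genes over all its UMIs. Border-associated macrophage-like cells had 4 of 131 and 0 of 55. Endothelial-like cells had 3 of 408 and 0 of 305, and mural-like cells 0 of 123 and 0 of 84, at the level of the background. T/NK-like cells had 1 of 45 and 3 of 13, and oligodendrocyte progenitor-like cells 0 of 26 and 3 of 39, too few for a comparison. Ependymal-like cells had 5 of 184 and 2 of 73, but in these cells Tpx2, a spindle assembly factor, and Cenpf, a kinetochore protein, gave 45.1% and 39.2% of the thinned G2/M UMIs, and a counted cell held a median of 1 G2/M gene over all its UMIs. A counted microglia-like cell held a median of 11 of the 18 genes, a monocyte/macrophage-like cell 16 and a neutrophil-like cell 12.5, and 79 of the 141 counted cells held at least 10.

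**Figure D2:**
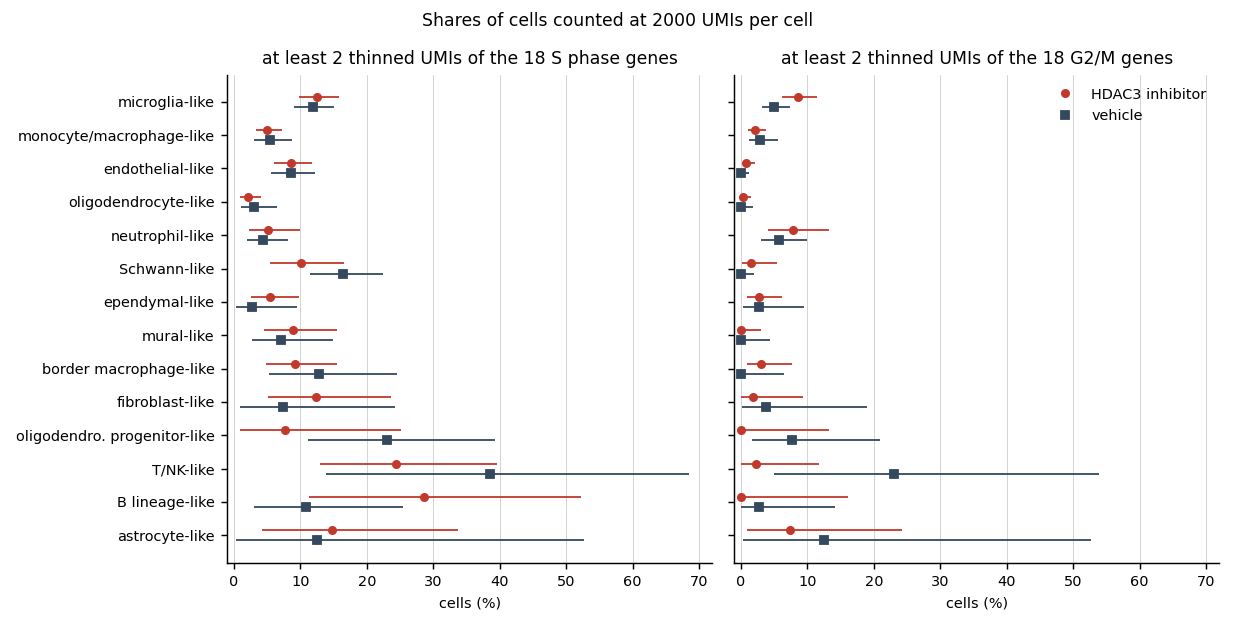
Share of cells (%) with at least 2 thinned UMIs of the S phase genes and of the G2/M genes, at 2000 UMIs per cell, in each class and library, with Clopper-Pearson 95% intervals. For G2/M, microglia-like cells (8.58% and 4.99%) and neutrophil-like cells (7.79% and 5.80%) stand above oligodendrocyte-like cells (0.261% and 0%), while for S phase the oligodendrocyte-like cells themselves reach 2.09% and 3.06%.

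For S phase, even the background class held counted cells. Microglia-like cells were counted for S in 60 of 478 (12.6%, 9.72 to 15.9%) and 57 of 481 (11.9%, 9.10 to 15.1%), Schwann-like cells in 10.1% and 16.4%, endothelial-like cells in 8.58% and 8.52%, and oligodendrocyte-like cells, the background, in 2.09% and 3.06%. Unthinned, the shares of microglia-like cells were 57.9% and 65.9% and those of oligodendrocyte-like cells 52.4% and 63.2%, so without a common depth the classes could not be ranked. A few genes gave much of these counts: Slbp, which binds histone mRNA, and Pcna, the sliding clamp of the polymerases, gave 27.5% and 19.0% of the thinned S phase UMIs of microglia-like cells. In Schwann-like cells Slbp, Pcna, Tipin and Dut gave 19.2%, 14.8%, 14.3% and 12.6%, beside 2 of 129 and 0 of 189 cells counted for G2/M. A count for S phase alone is not read as division here.

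Within classes most counted cells sat in 1 or 2 clusters. Of the microglia-like clusters, the largest had 3 of 299 and 0 of 311 cells counted for G2/M, while a cluster with Spp1 and Il1b among its leading genes had 30 of 138 (21.7%, 15.2 to 29.6%) and 17 of 114 (14.9%, 8.93 to 22.8%). A shallow cluster, at medians of 2951 and 2762.5 UMIs, had 8 of 41 and 7 of 56. In neutrophil-like cells all counted cells, 12 of 98 (12.2%) and 12 of 143 (8.39%), were in the cluster with the secondary granule genes Ngp, Camp and Ltf on top, and the cluster led by Retnlg and Cxcr2, genes of mature neutrophils, had 0 of 56 and 0 of 64.

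Monocyte/macrophage-like cells fell into a large cluster led by Spp1 and Gpnmb and a small one led by Plac8, Chil3 and Ly6c2. The small cluster held 29 and 44 cells, and 4 of 29 and 8 of 44 were counted for G2/M. The large cluster had 7 of 488 (1.43%, 0.579 to 2.93%) and 0 of 235, which allows up to 1.28%. The small cluster also had granule genes of early granulocytes and monocytes, with Prtn3 at 912 and 420.5 CPM, Elane at 328 and 94.8 CPM and Mpo at 171 and 53.3 CPM, and Ngp at 2.85 and 551 CPM. The neutrophil markers summed to 230.4 and 1152 CPM over the class, with 4 and 7 of 11 at 20 CPM or more, and their part in the results on this class was not tested.

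**Figure D3:**
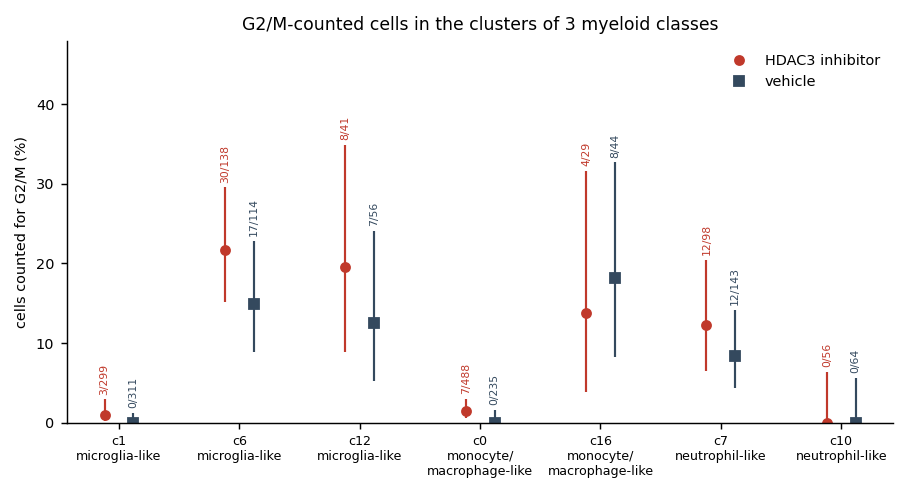
Share of cells counted for G2/M (%) in each cluster of the microglia-like, monocyte/macrophage-like and neutrophil-like classes, by library, with Clopper-Pearson 95% intervals and counted cells over all cells above each. The cluster c6 of microglia-like cells reaches 21.7% and 14.9%, c7 of neutrophil-like cells 12.2% and 8.39%, and c10 of neutrophil-like cells 0%.

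Counted cells were compared with the rest of their class for genes that the count did not use. The G2/M genes themselves made the split, so their difference is not read. In microglia-like cells, 51.2% and 75.0% of the cells counted for G2/M were also counted for S phase, against 8.92% and 8.53% of the rest. The cells counted for G2/M were deeper, with medians of 16535 and 24155.5 against 10896 and 12404 UMIs before thinning. Of the S phase genes with at least 20 UMIs, 16 of 16 and 17 of 17 were higher in the counted cells, by a median of 6.81-fold and 14.5-fold. The share of all genes higher in these cells was not computed. The folds also compare clusters. Tyms was at 51.8 and 34.2 CPM in the cluster with Spp1 and Il1b among its leading genes, and at 5.76 and 5.19 CPM in the largest. For Mcm3 these were 61.9 and 31.8 CPM against 30.7 and 33.5 CPM. Rrm2, the cell cycle-bound subunit of ribonucleotide reductase, stood out at 165-fold (68.9 to 516) and 271-fold (102 to 1013). Its partner Rrm1 differed by 16.7-fold (11.6 to 24.4) and 28.4-fold (19.2 to 42.7) and Tyms, which makes thymidylate, by 22.3-fold (15.4 to 33.0) and 25.1-fold (17.1 to 37.4). At the other end, Pcna differed by 3.82-fold (3.14 to 4.65) and 4.30-fold (3.45 to 5.33), Mcm3 by 3.23-fold (2.5 to 4.17) and 2.97-fold (2.12 to 4.09) and Slbp by 1.63-fold (1.28 to 2.04) and 1.22-fold (0.911 to 1.60). The rest of the microglia-like cells had 68.5 and 82.0 CPM of Slbp, so that this gene marked the counted cells least.

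The G1 regulators did not move as one. Cdk4 was higher in counted microglia-like cells by 2.06-fold (1.62 to 2.59) and 2.09-fold (1.57 to 2.76), and Cdkn1a was lower at 0.570-fold (0.513 to 0.632) and 0.505-fold (0.439 to 0.579), with 468 against 821 CPM and 372 against 736 CPM. Cdkn1a also differed between clusters. It was at 897 and 787 CPM in the largest, 668 and 651 CPM in the one rich in counted cells and 143 and 105 CPM in the shallow one. Its folds thus also compare clusters. For Ccnd1, at 1.06-fold (0.809 to 1.37) and 0.800-fold (0.474 to 1.27), the intervals held 1 in both libraries. In monocyte/macrophage-like cells Ccnd3 was higher in the counted cells by 6.09-fold (4.03 to 8.94) and 10.2-fold (7.34 to 13.9), and Cdk4 by 1.79-fold (1.32 to 2.36) and 2.49-fold (1.65 to 3.63). Of these counted cells, 4 of 11 and 8 of 8 lay in the small cluster, whose Ccnd3 was at 191 and 250.2 CPM against 10.4 and 11.3 CPM in the large cluster, so these folds also compare clusters. In neutrophil-like cells Cdkn1b was lower in the counted cells at 0.432-fold (0.288 to 0.629) and 0.464-fold (0.275 to 0.737), while Cdkn1a was higher at 2.64-fold (1.61 to 4.28) and 2.15-fold (1.02 to 4.19), the opposite side of 1 from microglia-like cells. These neutrophil-like comparisons rest on 12 and 12 counted cells with medians of 20613.5 and 18872.5 UMIs against 4247.5 and 6651 in the rest. All of the counted cells lay in the cluster with secondary granule genes. The cluster of mature cells had 592 and 418 CPM of Cdkn1b, so the Cdkn1b folds also compare clusters.

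Of 4 abundant genes from each of 4 related lists, the genes tied to mitosis (H2afz, Stmn1, Hmgb2, Tuba1b) and to replication (Rfc1, Rfc2, Nasp, Dtymk) were all higher in counted microglia-like cells in both libraries, Stmn1, which destabilises microtubules, by 11.1-fold (10 to 12.4) and 25.6-fold (22.5 to 29.1). The share of all genes higher in counted cells was not computed here either. Cdkn2d, an inhibitor of Cdk4 and Cdk6, was higher by 3.60-fold (2.73 to 4.73) and 4.70-fold (3.59 to 6.11). Btg2, an antiproliferative p53 target, was lower at 0.327-fold (0.276 to 0.386) and 0.273-fold (0.222 to 0.334), and Bax was at 1.16-fold (1.01 to 1.34) and 0.819-fold (0.659 to 1.01).

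Between the libraries, Ccnd1 had the clearest difference among the G1 regulators of microglia-like cells, with 78.3 CPM (71.5 to 85.6) and 40.5 CPM (36.0 to 45.5), for a ratio of 1.93 (1.67 to 2.25). The HDAC3 inhibitor library was higher in each cluster: the largest had 82.2 and 39.5 CPM, for a ratio of 2.08 (1.70 to 2.56), the cluster rich in counted cells 71.3 and 42.2 CPM, for a ratio of 1.69 (1.35 to 2.13), and the shallow one 121 and 36.2 CPM, for a ratio of 3.34 (1.52 to 7.89). Over the other settings of processing the log2 ratio of Ccnd1 stayed between 0.92 and 1.498. Ccnd2 had 12.6 and 6.89 CPM, for a ratio of 1.84 (1.27 to 2.68), with log2 ratios of 0.70 to 1.23 over the settings. Smaller differences in the same direction were seen for Cdk6, at 46.9 and 35.7 CPM and a ratio of 1.31 (1.10 to 1.56), Cdk4, at 1.19 (1.03 to 1.37), Cdkn1b, at 1.23 (1.05 to 1.45), and Cdkn1a, at 1.09 (1.05 to 1.14). For Ccnd3 the ratio of 1.09 (0.872 to 1.36) had an interval that held 1, and the direction of Cdk6 turned when cells were thinned (log2 ratio -0.19).

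In the microglia-like class 2 of 7 G1 regulators (Ccnd1 and Ccnd2) were at least 1.5-fold higher in the HDAC3 inhibitor library and 0 lower, where 4.85% of the 10650 genes with at least 20 UMIs were higher by that much and 4.47% lower. The lists also held 12 of 18 S phase genes and 1 of 18 G2/M genes at least 1.5-fold higher, and 0 lower. Median log2 ratios were 0.30 for G1 regulators, 0.64 for S phase and 0.29 for G2/M genes, against -0.011 for all genes measured in the class. The next paragraphs give each S phase and G2/M gene in both myeloid classes and in the class where its mean level over the libraries was highest. That class is often T/NK-like (51 and 13 cells) or astrocyte-like (31 and 15 cells), where a few cells carry the level: the 412 CPM of Top2a in astrocyte-like cells is 102 UMIs from 3 cells, 64.7% of them from 1.

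The helicase subunits Mcm2 to Mcm7 are loaded at origins in G1 and unwind DNA in S phase. Mcm2 reached 11.1 and 50.1 CPM in T/NK-like cells, its highest class, beside 8.76 and 5.63 CPM in the microglia-like and 3.52 and 5.60 CPM in the monocyte/macrophage-like class. Mcm3 was at 45.2 and 32.9 CPM among microglia-like, 17.1 and 17.6 CPM among monocyte/macrophage-like and, at its highest, 40.6 and 140.2 CPM among T/NK-like cells. Mcm4 reached 40.6 and 80.1 CPM in T/NK-like cells, its highest class, beside 12.8 and 4.36 CPM in the microglia-like and 7.90 and 8.08 CPM in the monocyte/macrophage-like class. Its microglia-like ratio of 2.94 (1.92 to 4.61) was the highest of the S phase list. The cluster rich in counted cells had 20.3 and 4.36 CPM, for a ratio of 4.65 (2.52 to 9.26), against 1.52 (0.765 to 3.07) in the largest cluster. Mcm5 was at 14.6 and 7.88 CPM among microglia-like, 4.54 and 4.30 CPM among monocyte/macrophage-like and, at its highest, 22.1 and 80.1 CPM among T/NK-like cells. Mcm6 reached 44.3 and 100.2 CPM in T/NK-like cells, its highest class, beside 22.7 and 11.5 CPM in the microglia-like and 14.5 and 13.5 CPM in the monocyte/macrophage-like class. Mcm7 was at 18 and 10.7 CPM among microglia-like, 6.89 and 9.64 CPM among monocyte/macrophage-like and, at its highest, 48 and 90.2 CPM among T/NK-like cells. All 6 subunits were thus higher in the HDAC3 inhibitor library in microglia-like cells, while in the monocyte/macrophage-like class Mcm2, at 0.629 (0.405 to 0.978), and Mcm7, at 0.715 (0.519 to 0.987), were lower and the other 4 had intervals that held 1. Within the clusters of that class neither was lower beyond its interval: Mcm2 had 1.03 (0.565 to 1.95) in the large and 0.924 (0.423 to 1.91) in the small cluster, and Mcm7 had 0.939 (0.622 to 1.43) and 1.26 (0.713 to 2.20). The small cluster, with higher levels of both genes than the large one, was 29 of 518 and 44 of 279 cells.

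Cdc6 loads the helicase, Cdc45 and Gins2 activate it, and Tipin protects stalled forks. Cdc6 reached 3.69 and 60.1 CPM in T/NK-like cells, its highest class, beside 1.95 and 1.27 CPM in the microglia-like and 1.17 and 1.43 CPM in the monocyte/macrophage-like class. Cdc45 was at 5.03 and 3.23 CPM among microglia-like, 3.44 and 3.65 CPM among monocyte/macrophage-like and, at its highest, 20.2 and 25.3 CPM among astrocyte-like cells. With Ung, they had the fewest UMIs of the S phase list in microglia-like cells. Gins2 reached 47.5 and 4.36 CPM in B lineage-like cells, its highest class, beside 16.4 and 9.0 CPM in the microglia-like and 8.06 and 6.38 CPM in the monocyte/macrophage-like class, and its microglia-like ratio was 1.82 (1.32 to 2.53). Tipin was at 20.3 and 12 CPM among microglia-like, 11.2 and 10 CPM among monocyte/macrophage-like and, at its highest, 87.2 and 8.72 CPM among B lineage-like cells, and its microglia-like ratio was 1.70 (1.28 to 2.26). Pcna reached 73.8 and 180.3 CPM in T/NK-like cells, its highest class, beside 72.1 and 60.8 CPM in the microglia-like and 36.5 and 31.1 CPM in the monocyte/macrophage-like class. The ratio of Pcna was 1.19 (1.04 to 1.36) in the microglia-like and 1.17 (1.002 to 1.38) in the monocyte/macrophage-like class. Of these, Gins2 and Tipin kept their direction in microglia-like cells under the other settings that measured them.

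Among enzymes that make or clear nucleotides, Rrm1, Rrm2, Tyms and Dut had intervals above 1 in microglia-like cells and intervals that held 1 in the monocyte/macrophage-like class. Rrm1 was at 25.5 and 18.7 CPM among microglia-like, 10.4 and 8.47 CPM among monocyte/macrophage-like and, at its highest, 133 and 50.5 CPM among astrocyte-like cells. Rrm2 reached 84.9 and 101 CPM in astrocyte-like cells, its highest class, beside 22.4 and 14.5 CPM in the microglia-like and 4.46 and 4.17 CPM in the monocyte/macrophage-like class. Tyms was at 27.7 and 18.6 CPM among microglia-like, 8.14 and 8.99 CPM among monocyte/macrophage-like and, at its highest, 33.2 and 100.2 CPM among T/NK-like cells. Dut removes dUTP. Dut reached 125 and 291 CPM in T/NK-like cells, its highest class, beside 27.4 and 15.6 CPM in the microglia-like and 17.8 and 16 CPM in the monocyte/macrophage-like class, and its microglia-like ratio was 1.76 (1.37 to 2.25). Ung cuts uracil out of DNA. Ung was at 2.92 and 2.95 CPM among microglia-like, 3.52 and 3.52 CPM among monocyte/macrophage-like and, at its highest, 22.1 and 60.1 CPM among T/NK-like cells. The list's last members act on chromatin: Uhrf1 keeps DNA methylation through replication and Slbp serves histone synthesis. Uhrf1 reached 18.4 and 40.1 CPM in T/NK-like cells, its highest class, beside 9.40 and 5.20 CPM in the microglia-like and 1.17 and 2.47 CPM in the monocyte/macrophage-like class. Its ratio was 1.81 (1.18 to 2.81) in the microglia-like and 0.474 (0.224 to 0.985) in the monocyte/macrophage-like class. Slbp was at 74.3 and 83.3 CPM among microglia-like, 31.9 and 31.1 CPM among monocyte/macrophage-like and, at its highest, 92.2 and 200.4 CPM among T/NK-like cells. Slbp, at a microglia-like ratio of 0.892 (0.788 to 1.01), and Ung were the 2 S phase genes of 18 not higher there in the HDAC3 inhibitor library.

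The S phase difference depended on how cells were weighted. Intervals lay above 1 for 14 of 18 S phase genes in microglia-like cells, yet their median log2 ratio of 0.64 became -0.0047 when each cell counted alike and -0.26 when all cells were thinned to 2000 UMIs. The share of all genes with an interval above 1 was not computed, so the count of 14 cannot be read as an enrichment. The shares of cells counted for S phase were 12.6% and 11.9%. Mcm4, Gins2, Dut, Tipin and Uhrf1 were the 5 whose interval lay above 1 and whose direction held in each other setting where they were measured. Depth and other cells moved with the libraries too: the erythroid markers summed to 24.8 and 344 CPM in microglia-like cells, with 0 and 3 of 9 at 20 CPM or more and 3 and 1 at 0, and their part in the result was not tested.

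Cdk1 is the mitotic kinase, and Ccnb1 and Ccnb2 are its cyclins. Cdk1 reached 267 and 88.4 CPM in astrocyte-like cells, its highest class, beside 44.9 and 42.9 CPM in the microglia-like and 14.8 and 9.12 CPM in the monocyte/macrophage-like class. Ccnb1 was at 11.5 and 9.98 CPM among microglia-like, 4.38 and 3.13 CPM among monocyte/macrophage-like and, at its highest, 158 and 12.6 CPM among astrocyte-like cells. Ccnb2 reached 113 and 37.9 CPM in astrocyte-like cells, its highest class, beside 22.9 and 17.7 CPM in the microglia-like and 7.98 and 6.38 CPM in the monocyte/macrophage-like class. Ccna2 is the cyclin of S and G2. Ccna2 was at 11.7 and 11.8 CPM among microglia-like, 4.15 and 2.60 CPM among monocyte/macrophage-like and, at its highest, 64.7 and 12.6 CPM among astrocyte-like cells. In microglia-like cells the intervals of all but Ccnb2, at 1.29 (1.01 to 1.65), held 1, and in monocyte/macrophage-like cells those of all but Cdk1, at 1.62 (1.23 to 2.17).

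Mki67 and Top2a had the highest G2/M levels in microglia-like cells of both libraries. Birc5 (survivin) is a part of the chromosomal passenger complex with the kinase Aurkb. Mki67 reached 22.1 and 230.4 CPM in T/NK-like cells, its highest class, beside 72.3 and 58.4 CPM in the microglia-like and 19.8 and 15.9 CPM in the monocyte/macrophage-like class. Top2a was at 70.9 and 49.6 CPM among microglia-like, 18.4 and 19.0 CPM among monocyte/macrophage-like and, at its highest, 412 and 25.3 CPM among astrocyte-like cells. Birc5 reached 84.9 and 50.5 CPM in astrocyte-like cells, its highest class, beside 62.6 and 39.9 CPM in the microglia-like and 17.5 and 10.3 CPM in the monocyte/macrophage-like class. Birc5 was the G2/M gene at least 1.5-fold higher there in the HDAC3 inhibitor library, at 1.57 (1.34 to 1.83). Top2a had a ratio of 1.43 (1.24 to 1.65) and Mki67 one of 1.24 (1.08 to 1.42). Aurkb was at 10.9 and 9.14 CPM among microglia-like, 3.13 and 3.0 CPM among monocyte/macrophage-like and, at its highest, 48.5 and 25.3 CPM among astrocyte-like cells.

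Nusap1 bundles microtubules, Tpx2 and Hmmr act on the spindle, and Cenpf, the motor Cenpe and the checkpoint kinase Bub1 act at kinetochores. Nusap1 reached 129 and 0 CPM in astrocyte-like cells, its highest class, beside 23.5 and 17.7 CPM in the microglia-like and 3.68 and 3.91 CPM in the monocyte/macrophage-like class. Tpx2 was at 20.8 and 16.3 CPM among microglia-like, 5.87 and 4.04 CPM among monocyte/macrophage-like and, at its highest, 113 and 25.3 CPM among astrocyte-like cells. Hmmr reached 137 and 0 CPM in astrocyte-like cells, its highest class, beside 14.8 and 13.6 CPM in the microglia-like and 3.52 and 1.95 CPM in the monocyte/macrophage-like class. Each of these 3 was higher in the microglia-like than in the monocyte/macrophage-like class in both libraries. Cenpf was at 35.0 and 27.3 CPM among microglia-like, 9.16 and 1.82 CPM among monocyte/macrophage-like and, at its highest, 379.9 and 0 CPM among astrocyte-like cells. Cenpe reached 88.9 and 0 CPM in astrocyte-like cells, its highest class, beside 24.8 and 20.5 CPM in the microglia-like and 7.43 and 4.04 CPM in the monocyte/macrophage-like class. Bub1 was at 10.2 and 7.73 CPM among microglia-like, 1.957 and 1.04 CPM among monocyte/macrophage-like and, at its highest, 20.2 and 0 CPM among astrocyte-like cells. In microglia-like cells their ratios ranged from 1.08 (Hmmr) to 1.33 (Nusap1), and the intervals of Nusap1 and Cenpf lay above 1.

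The kinases Aurka and Plk1 drive spindle assembly, Cdc20 activates the anaphase-promoting complex, and Ube2c is that complex's ubiquitin-conjugating enzyme. Aurka reached 80.8 and 12.6 CPM in astrocyte-like cells, its highest class, beside 5.19 and 3.52 CPM in the microglia-like and 2.5 and 2.21 CPM in the monocyte/macrophage-like class. Plk1 was at 5.67 and 6.05 CPM among microglia-like, 2.5 and 0.781 CPM among monocyte/macrophage-like and, at its highest, 80.8 and 0 CPM among astrocyte-like cells. Both were the G2/M genes with the fewest UMIs in microglia-like cells. Cdc20 reached 125 and 12.6 CPM in astrocyte-like cells, its highest class, beside 12.2 and 12 CPM in the microglia-like and 3.99 and 1.17 CPM in the monocyte/macrophage-like class. Ube2c was at 51.9 and 48.8 CPM among microglia-like, 23.2 and 12.9 CPM among monocyte/macrophage-like and, at its highest, 303 and 25.3 CPM among astrocyte-like cells. Plk1, at 0.938 (0.583 to 1.5), and Ccna2 were the 2 G2/M genes not higher there in the HDAC3 inhibitor library.

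In microglia-like cells the intervals of 6 of 18 G2/M genes lay above 1, and Birc5, Ccnb2 and Cenpf also held their direction in each other setting where they were measured. The share of all genes with such an interval was not computed, so the count of 6 cannot be read as an enrichment. Without the 3% of cells with the highest doublet scores in each library, the cells were clustered again. The list's median log2 ratio then turned from 0.29 to -0.23, and the cells counted for G2/M fell to 19 of 436 and 15 of 461. Monocyte/macrophage-like ones rose from 11 of 517 and 8 of 279 to 31 of 549 and 18 of 293. Over all cells 73 of 2744 and 61 of 2007 were counted, so the class that holds these cells also changed. In the largest cluster alone the median was 1.94, over fewer than 18 genes, since only genes with at least 20 UMIs there were measured. Within clusters the directions mixed: in the largest, Birc5 had 29 and 4 UMIs and Cdc20 25 and 2, while in the cluster rich in counted cells Cdc20 had 16.1 and 26.8 CPM, for a ratio of 0.6 (0.408 to 0.873), and Mki67 145 and 134 CPM, for a ratio of 1.08 (0.939 to 1.24).

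Over monocyte/macrophage-like cells as a whole, Ccnd1 and several G2/M genes were higher and Ccnd3 lower in the HDAC3 inhibitor library. Ccnd1 was higher in the HDAC3 inhibitor library, with 9.94 CPM (8.29 to 11.8) and 2.60 CPM (1.59 to 4.02), for a ratio of 3.82 (2.37 to 6.46), and the large cluster alone had 9.90 and 2.57 CPM, for a ratio of 3.85 (2.34 to 6.71). Ccnd3 was lower, with 15.3 and 32.3 CPM, for a ratio of 0.475 (0.392 to 0.575). The small cluster with genes of early granulocytes had 191 and 250.2 CPM of Ccnd3 and was 29 of 518 and 44 of 279 cells of the class, and in the large cluster alone the ratio was 0.920 (0.690 to 1.23). Cdk4 was at 75.2 and 63.4 CPM, for a ratio of 1.19 (1.06 to 1.33), and for Cdk6, Cdkn1a and Cdkn1b the intervals held 1. Ccnd2, at under 20 UMIs, was not measured.

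Here 1 of 6 measured G1 regulators (Ccnd1) was at least 1.5-fold higher and 1 (Ccnd3) lower, 0 of 18 S phase genes were higher and 2 (Uhrf1 and Mcm2) lower, and 10 of 18 G2/M genes were higher and 0 lower, against 4.64% higher and 5.38% lower of all genes measured in the class. The median log2 ratio was 0.019 for S phase and 0.68 for G2/M genes, beside -0.011 for all genes. Within its clusters, which the libraries held in different shares, several S phase genes had intervals above 1. Rrm2, at 2.96 (1.76 to 5.05), Dut, at 2.40 (1.67 to 3.46), and Mcm6, at 2.04 (1.24 to 3.36), were higher in the small cluster. Mcm5, at 5.35 (1.93 to 20.6), and Rrm1, at 1.80 (1.22 to 2.72), were higher in the large one. Among the G2/M genes of the whole class, Cenpf, at 5.02 (2.88 to 9.47), Cdc20, at 3.40 (1.66 to 7.87), and Plk1, at 3.20 (1.32 to 9.38), had the highest ratios, and Cenpe, at 1.84 (1.22 to 2.86), Ube2c, at 1.80 (1.43 to 2.28), and Birc5, at 1.70 (1.31 to 2.23), also had intervals above 1.

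These ratios rested on few cells. In the large cluster Cenpf had 103 and 0 UMIs, Birc5 168 and 4, Ube2c 243 and 8, and Mki67 206 and 36, and this cluster held 7 and 0 cells counted for G2/M. In the small cluster Birc5 had a ratio of 1.44 (0.998 to 2.06) and Ube2c one of 1.12 (0.783 to 1.59). Single cells gave 29.9% of the Cenpf UMIs of the class in the HDAC3 inhibitor library and 66.7% of the 9 Cdc20 UMIs in the vehicle library. The list's median of 0.68 became 0.12 with each cell counted alike, 0.11 after thinning, 0.068 without the highest doublet scores and 3.50 in the large cluster alone. Birc5, Cdk1 and Cdc20 were the 3 whose intervals lay above 1 and whose direction held in each other setting where they were measured.

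**Figure D4:**
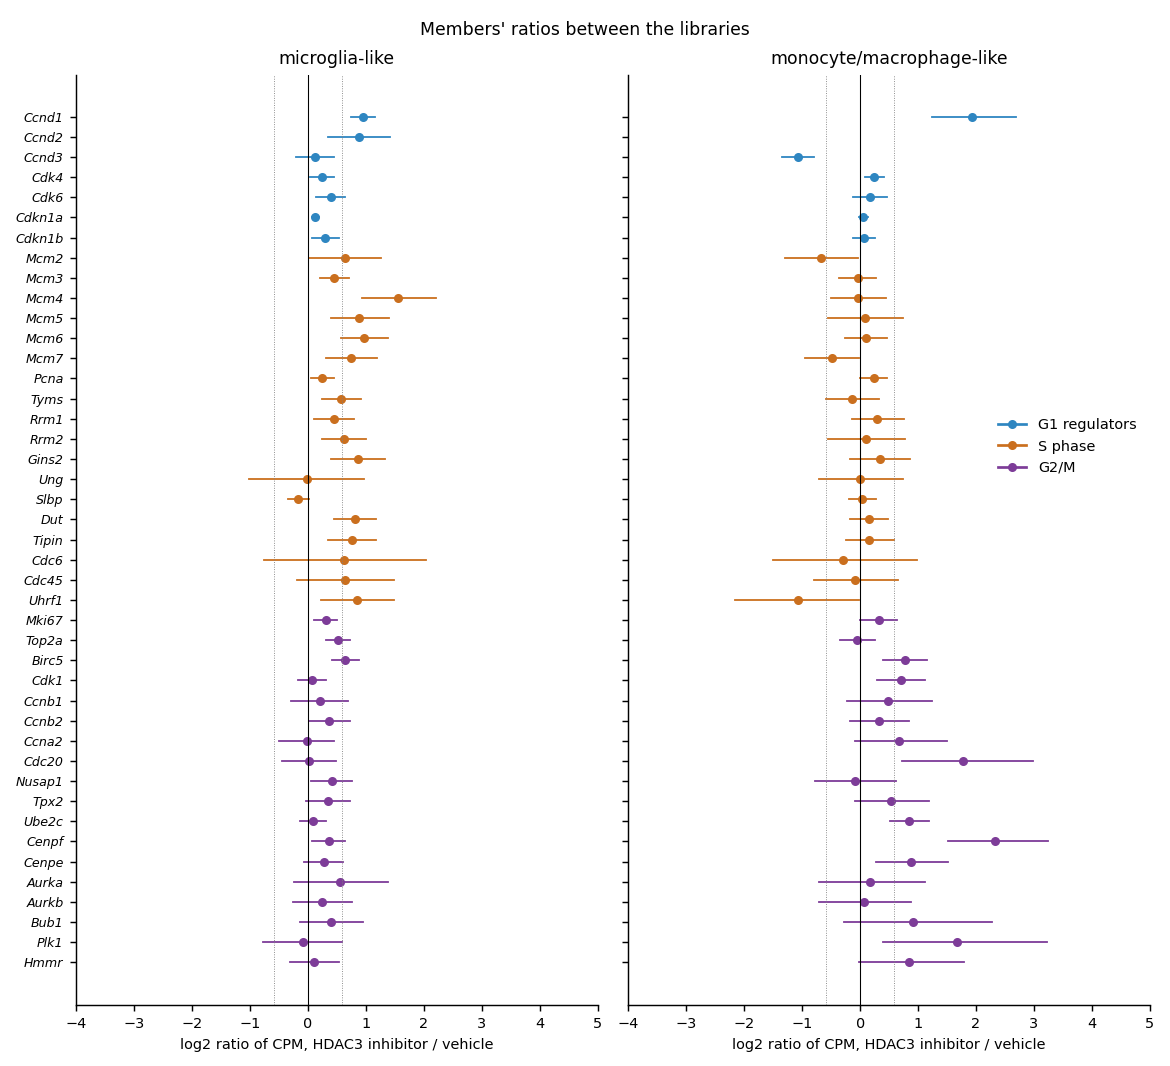
Log2 ratio of CPM (HDAC3 inhibitor over vehicle) of each measured gene in the microglia-like and the monocyte/macrophage-like class, with exact conditional binomial 95% intervals, coloured by list; dotted lines mark 1.5-fold, and Ccnd2 is not drawn for monocyte/macrophage-like cells, where it was not measured. Ccnd1 lies above 0 in both classes, 14 of 18 S phase intervals lie above 0 in the microglia-like and 1 of 18 in the monocyte/macrophage-like class, and Cenpf and Cdc20 lie far above 0 in monocyte/macrophage-like cells. The share of all genes with an interval above 0 was not computed.

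In neutrophil-like cells Cdkn1a was higher in the HDAC3 inhibitor library, with 72.5 CPM (57.7 to 89.9) and 29.5 CPM (21.9 to 38.7), for a ratio of 2.46 (1.72 to 3.56), and Cdkn1b had 280.4 and 182 CPM, for a ratio of 1.54 (1.31 to 1.81). Ccnd3 had an interval that held 1, at 0.972 (0.838 to 1.12). The measured members at least 1.5-fold higher were 2 of 5 G1 regulators (Cdkn1a, Cdkn1b), 3 of 14 S phase genes (Tyms, Dut, Mcm7) and 8 of 15 G2/M genes, and Cdk6 and Cdc45 were lower, against 14.3% higher and 6.93% lower of all genes. The G2/M median log2 ratio was 0.60, beside 0.095 for all genes. It turned to -0.57 after thinning, and to -0.42 over 3 genes still measured without the 5% of cells with most UMIs of the lists. The class differed in depth, at medians of 4076.5 and 6796.5 UMIs, and the cluster of mature cells was 76 of 176 and 69 of 212 of it.

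**Figure D5:**
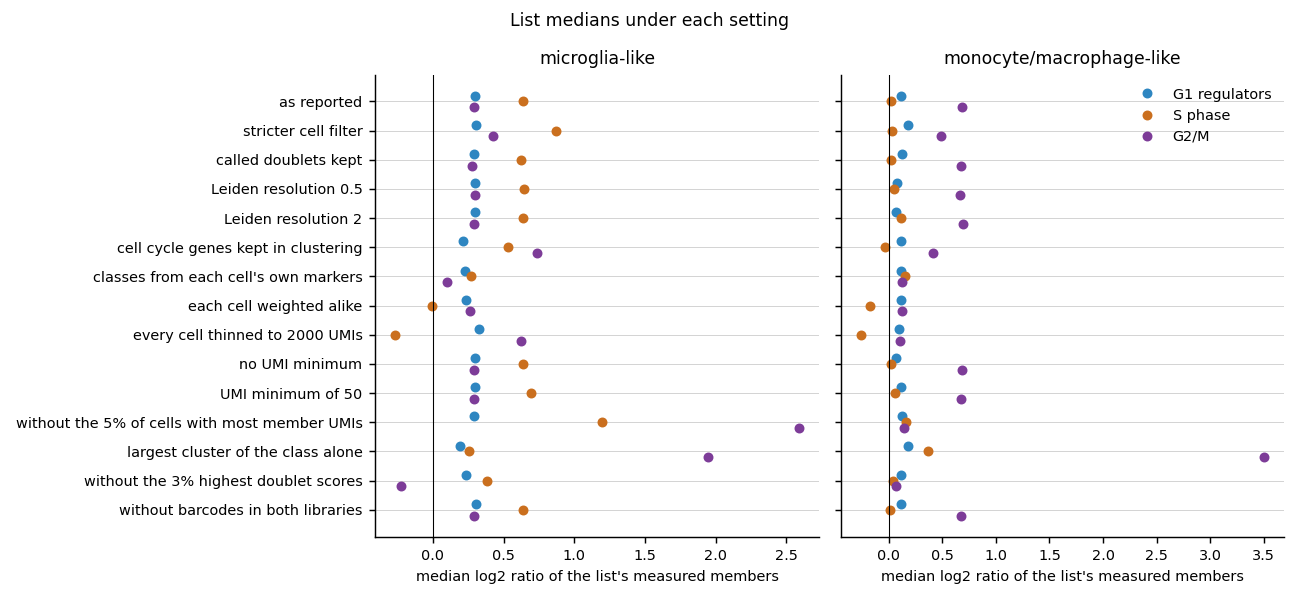
Median log2 ratio of the measured G1 regulators, S phase and G2/M genes in the microglia-like and the monocyte/macrophage-like class, as reported and under each other setting. The S phase median of microglia-like cells moves from 0.64 as reported to -0.26 after thinning, while that of the G1 regulators stays above 0 under every setting drawn.

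Of the other classes compared, Schwann-like and endothelial-like cells had more Ccnd1 in the HDAC3 inhibitor library. Oligodendrocyte progenitor-like cells had 347 and 559 CPM of Ccnd1. With 26 and 49 cells, they fell short of the 100 cells per library required for a comparison. The libraries also held their clusters in different shares, with 10 of 26 and 28 of 49 cells in the same cluster. The part of these shares in the Ccnd1 levels was not tested. In Schwann-like cells Ccnd1 had 149 CPM (119 to 184) and 65.2 CPM (48.2 to 86.2), for a ratio of 2.28 (1.59 to 3.31), and Cdk4 had 83.9 and 45.3 CPM, for a ratio of 1.85 (1.17 to 2.96). In the HDAC3 inhibitor library 1 cell gave 37.9% of the 87 Ccnd1 UMIs and 1 cell 26.5% of the 49 Cdk4 UMIs. Cdkn1a, at 0.896 (0.813 to 0.986), and Cdkn1b, at 0.875 (0.772 to 0.992), were slightly lower. Members at least 1.5-fold higher were 2 of 6 G1 regulators and 3 of 7 S phase genes (Rrm1, Dut, Tipin), and 0 were lower, against 11.1% higher and 9.75% lower of all genes. The 4 G2/M genes measured (Mki67, Top2a, Tpx2, Cenpe) were also higher by that much, but their count is not set against the share of all genes. The G2/M genes rest on 1 or a few cells: the 33 Top2a UMIs came from 1 cell and Mki67 had 22 UMIs in 2 cells, beside 0 and 3 UMIs in the vehicle library. Top2a and Mki67 thus reached the UMI minimum through the HDAC3 inhibitor library alone, so the count of 4 cannot be read as an enrichment. At 2000 UMIs per cell, 13 of 129 (10.1%, 5.48 to 16.6%) and 31 of 189 (16.4%, 11.4 to 22.5%) Schwann-like cells were counted for S phase. That share was smaller in the HDAC3 inhibitor library, with intervals that overlapped. The 2 cells counted for G2/M, both in that library, held a median of 10.5 S phase genes. Their part in the S phase ratios was not tested.

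In endothelial-like cells Ccnd1 had a ratio of 1.25 (1.13 to 1.38), Cdkn1a one of 1.16 (1.08 to 1.24) and Ccnd2 one of 0.859 (0.750 to 0.985). At least 1.5-fold higher were 0 of 7 G1 regulators and Mcm5 of 13 measured S phase genes, against 4.32% of all genes. None of the 3 lists had a gene lower by that much, against 4.15% of all genes. Mki67 and Nusap1 of the 3 G2/M genes measured were also at least 1.5-fold higher, but their count is not set against the share of all genes. Mki67 had 25 and 4 UMIs there and thus reached the UMI minimum through the HDAC3 inhibitor library alone. Of the endothelial-like cells, 3 of 408 and 0 of 305 were counted for G2/M. In oligodendrocyte-like cells 0 of 5 G1 regulators and 1 of 10 S phase genes (Dut, 1.53 (1.02 to 2.35)) were at least 1.5-fold higher and 0 lower, against 5.34% higher and 3.87% lower, and no G2/M gene was measured.

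Related genes that are not members followed the lists in part. Their ratios rest on UMIs summed over the same cells and were not computed with cells weighted alike or thinned. In microglia-like cells 33 of 37 measured other replication genes were higher in the HDAC3 inhibitor library, 22 of them at least 1.5-fold. Of all genes measured in the class, 4.85% were higher by that much. The 22 included Dtymk, a thymidylate kinase, with 36.3 and 19.7 CPM, 1.84 (1.49 to 2.29). For Nasp, a histone chaperone, with 67.4 and 69.0 CPM, 0.977 (0.855 to 1.12), the interval held 1. Of other mitosis genes 51 of 59 were higher, 18 by at least 1.5-fold, beside the same 4.85% of all genes. H2afz, a histone variant, was at 891 and 695 CPM, 1.28 (1.23 to 1.33), and Stmn1 at 247 and 158 CPM, 1.56 (1.44 to 1.69). Other G1 regulators were split, 13 of 22 higher, with Cdkn2d at 38.1 and 39.7 CPM, 0.961 (0.805 to 1.15) and Rb1, the retinoblastoma protein, at 33.1 and 30.2 CPM, 1.09 (0.899 to 1.33). The p53 targets were 6 of 12 higher and 0 at least 1.5-fold, with Btg2 at 483 and 584 CPM, 0.827 (0.788 to 0.867) and Bax, a cell death factor, at 239.6 and 201 CPM, 1.19 (1.11 to 1.28). In monocyte/macrophage-like cells the other mitosis genes had a median log2 ratio of 0.12, with 10 of 54 at least 1.5-fold higher, against 4.64% of all genes. Hmgb2, a chromatin protein of dividing cells, was lower with 110.2 and 167 CPM, 0.660 (0.611 to 0.712). Of its UMIs 494 of 1408 and 602 of 1282 came from the 11 and 8 cells counted for G2/M. The rest of the class had 73.8 and 90.8 CPM. The small cluster was 29 of 518 and 44 of 279 cells.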

How the data were processed

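Per the matrix headers and the submitters' processing notes, the deposited matrices hold raw UMI counts per gene and barcode made by the authors with Cell Ranger 3.0.2 on mm10. Seurat is also named there, with no role. Kept cells had 500 genes and 1000 UMIs or more and no more than 15% of UMIs from mitochondrial genes. Scrublet, run in each library, called 34 of 5946 barcodes (0.572%) doublets, which were left out. Both libraries were clustered together without integration (scanpy 1.11.5, 2000 variable genes without cell cycle genes, 30 components, 20 neighbours, Leiden resolution 1, leidenalg 0.10.2), and clusters were named from marker lists, whose score thresholds were set with the data seen. The members and lists were chosen with earlier results of these data known. Counts were summed per class and library, and a gene was measured with at least 20 UMIs over both libraries. Ratios have exact conditional binomial intervals and classes of at least 100 cells per library were compared (scipy 1.17.1). Text values follow a rule that takes all G1 regulators, the S phase and G2/M genes in both myeloid classes and their highest class, and the 4 most abundant genes of each other list. The steps were tested on simulated counts. UMIs are molecules, but intervals cover counting error only. Promoter windows came from RefSeq (GRCm38.p6) and coordinates from GENCODE M21. Alternatives changed the filter, doublets, clustering, class names, cell weights, depth and UMI minimum. The labels do not say whether cells of several mice were pooled.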

Additional observations from a re-analysis of the deposited data

Results flagged for a closer look

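For 6 genes the ratio between the libraries lay above 1 in one class and below 1 in another, each with an interval that did not hold 1. In the HDAC3 inhibitor library Ccnd2 was higher in microglia-like (1.84) and lower in endothelial-like cells (0.859), a log2 difference of 1.09. Cdkn1a was higher in neutrophil-like (2.46) and lower in Schwann-like cells (0.896), a log2 difference of 1.46. Cdkn1b was also higher in neutrophil-like (1.54) and lower in Schwann-like cells (0.875), a log2 difference of 0.82. Among replication genes, Mcm2 had ratios of 1.56 in microglia-like and 0.629 in monocyte/macrophage-like cells, a log2 difference of 1.31. Mcm7 had 1.68 and 0.715, a difference of 1.24, and Uhrf1 1.81 and 0.474, a difference of 1.93. Within the monocyte/macrophage-like class, Mcm2 had ratios of 1.03 and 0.924 in the large and the small cluster and Mcm7 0.939 and 1.26, and Uhrf1 had 0.792 in the small one, all with intervals that held 1. The small cluster was 29 of 518 and 44 of 279 cells of that class. The difference between classes was not tested for any of the 6 genes, and the pairs were picked for lying apart. With each cell weighted alike, Mcm2 and Mcm7 turned below 1 in microglia-like cells.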

How the results depend on the processing

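Of the ratios of single genes under the other settings, 1317 stayed within their interval, 197 moved out of it and 41 that had an interval off 1 changed direction. Of the 1317, 119 came from dropping the UMI minimum and 96 from raising it to 50. These settings change which genes are measured and cannot change a ratio. Leiden resolutions 0.5 and 2 left the numbers of thinned microglia-like and neutrophil-like cells unchanged. Apart from thinning, a setting measured only genes that reached its UMI minimum, so medians and directions can rest on fewer genes or settings. The list medians that moved out of theirs, as log2 ratios of the HDAC3 inhibitor over the vehicle library beside those in the report, were as follows. With a stricter cell filter, the median of S phase was 0.87 and G2/M was 0.43 in microglia-like cells. With cell cycle genes kept in the clustering, the median of G2/M was 0.74 in microglia-like cells. With cells put in classes one by one from their markers, the median of S phase was 0.27 in microglia-like cells, S phase was 0.16 and G2/M was 0.12 in monocyte/macrophage-like cells and G2/M was 0.23 in neutrophil-like cells. Genes that turned were Pcna -0.11, Tyms -0.065, Rrm1 -0.033 and Rrm2 -0.16 (microglia-like) and Mki67 -0.47, Cenpe -0.56 and Plk1 -0.35 (monocyte/macrophage-like). With each cell weighted alike, the median of S phase turned to -0.0047 in microglia-like cells, S phase was -0.18 and G2/M was 0.12 in monocyte/macrophage-like cells and G2/M was 0.18 in neutrophil-like cells. Genes that turned were Mcm2 -0.071, Mcm5 -0.067, Mcm7 -0.0091, Pcna -0.00033, Tyms -0.23, Rrm2 -0.64 and Mki67 -0.16 (microglia-like) and Mki67 -0.0048 (monocyte/macrophage-like). With every cell thinned to 2000 UMIs, the median of S phase turned to -0.26 and G2/M was 0.62 in microglia-like cells, S phase was -0.26 and G2/M was 0.11 in monocyte/macrophage-like cells and G2/M turned to -0.57 in neutrophil-like cells. Genes that turned were Cdk6 -0.19, Mcm2 -1.87, Mcm3 -0.58, Mcm6 -0.28, Mcm7 -0.84, Pcna -0.25, Tyms -0.54, Rrm1 -0.13 and Rrm2 -0.69 (microglia-like), Mki67 -0.26, Cenpf -0.89 and Plk1 -1.89 (monocyte/macrophage-like) and Ube2c -1.16 and Cenpe -0.57 (neutrophil-like). Without the 5% of cells with most UMIs of the 3 lists, the median of S phase was 1.198 and G2/M was 2.59 in microglia-like cells, S phase was 0.16 and G2/M was 0.15 in monocyte/macrophage-like cells and G2/M turned to -0.42 in neutrophil-like cells. Genes that turned were Ube2c -0.44 (monocyte/macrophage-like) and Ube2c -0.64 (neutrophil-like). In the largest cluster of each class alone, the median of S phase was 0.25 and G2/M was 1.94 in microglia-like cells and S phase was 0.37 and G2/M was 3.50 in monocyte/macrophage-like cells. Genes that turned were Mcm3 -0.13, Mcm5 -0.021 and Rrm1 -0.44 (microglia-like) and Mcm2 0.047 (monocyte/macrophage-like). Without the 3% of cells with the highest doublet scores and with the rest clustered again, the median of S phase was 0.38 and G2/M turned to -0.23 in microglia-like cells and G2/M was 0.068 in monocyte/macrophage-like cells. Genes that turned were Rrm1 -0.12, Rrm2 -0.24, Top2a -0.51 and Nusap1 -0.29 (microglia-like) and Mki67 -0.32 and Cenpe -0.015 (monocyte/macrophage-like). The share of cells counted for S phase had a log2 ratio of -0.50 over all cells and -0.43 in microglia-like cells with at least 3 UMIs required, and of 0.14 over all cells with random seed 15. The 72 log2 ratios of the G2/M shares lay within their intervals, which were wide. Over all cells, settings that changed only clusters or class names could not change them. In monocyte/macrophage-like cells the ratio went from -0.43 to 0.49 with random seed 12. In neutrophil-like cells it went from 0.43 to -0.36 without the highest doublet scores. In microglia-like cells it stayed above 0, down to 0.37 unthinned, with an interval that held 0. The G2/M shares themselves moved: with cell cycle genes kept in the clustering they were 1.58% and 0.652% in microglia-like and 28.3% and 16.7% in neutrophil-like cells, and without the highest doublet scores 5.65% and 6.14% in the monocyte/macrophage-like class. Settings with the largest cluster, without the highest doublet scores or without shared barcodes were chosen after seeing the data. The cause of these shifts was not tested. With 1 library per group, an effect of treatment and a difference between the libraries cannot be told apart, and genes with few UMIs are limited by depth, as the intervals show. No paired analysis was possible because each group has 1 library and no comparison was tested.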
